A study of Homo sapiens with 68 samples.

Results

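NEAT1 is a long nuclear RNA that is not translated and that serves as the scaffold of paraspeckles, protein-rich bodies in the nucleus. It is made as a short and a long isoform that start at the same 5′ end, so the 5′ portion of the gene is present in both, and only the long isoform builds paraspeckles. Its gene carries the identifier ENSG00000245532 in the peak lists. All peaks named with that identifier were taken, which gave 3416 peaks out of 15800601 in 68 lists (0.0216%). Every list held at least 1. They lay on the plus strand of chr11:65190264-65212970 in hg19, the genome build named in the submitters' processing notes, a span of 22707 nt. Distances are counted from the first of these positions.

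The lists come from TLC-CLIP, in which ultraviolet light links proteins to RNA in living cells, 1 protein is immunoprecipitated and the attached RNA fragments are sequenced. The cells were HEK293T, a human embryonic kidney line, and the 68 libraries formed 34 groups of 2. The antibodies were against hnRNPA1, a splicing regulator that shuttles between nucleus and cytoplasm; hnRNPc (hnRNP C), which packages nascent transcripts and binds runs of uridine; hnRNPI, the polypyrimidine tract-binding protein PTBP1; and RBFOX2 (antibody named RBM9), a splicing factor that recognises GCAUG elements. For each protein there were crosslinked libraries of 50000 cells with 0.005 U RNase and excision of the protein-RNA complexes from a polyacrylamide gel (group name 50k_lowRNase), without that gel step (50k_noPAGE), and without it but with added RecJ exonuclease, which digests leftover adapter (50k_noPAGE_RecJ). Libraries from cells that were not crosslinked existed for each protein with the gel step (noUV) and without it (noUV_noPAGE), also at 50000 cells and 0.005 U. hnRNPA1 and hnRNPc were further profiled with 0.025 U RNase (50k_mediumRNase). hnRNPc and RBFOX2 were profiled from 10000 cells with 0.001 U and from 1000 cells with 0.0001 U, and hnRNPc from libraries titled 5k and 500 without the gel step. The labels give 50000 cells for these last ones, and the titles were followed. Excised gel regions at 50 to 75, 75 to 100, 100 to 150 and 150 to 250 kDa, from 10000 cells with the hnRNPc antibody, made up the other 4 groups. In all, 44 libraries were crosslinked, 16 were noUV and 8 were gel regions. The protocol text of the noUV libraries also describes crosslinking, so their lack of it rests on the titles and the series' design.

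Leaving aside the gel regions, 15 to 99 NEAT1 peaks were listed per library (median 57), holding 200 to 83071 reads. Here the last number in a peak's name is read as the reads over that peak. How deeply each library was sequenced is unknown. The reads in all listed peaks ran from 49769 to 12349790. The lowest values belonged to hnRNPc_50k_lowRNase replicate 1, with 3268 peaks of all genes, 15 of them in NEAT1. That library stands apart, and results that rest on it are given with and without it. The noUV, 10k, 1k and gel region libraries have accessions in a separate run, so a shared preparation cannot be told apart from these groups. Nothing says that replicates were separate cultures, so p-values measure the spread between these libraries, which may be technical.

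hnRNPA1, hnRNPI and hnRNPc had their strongest NEAT1 peaks in 3 different regions. Each region recurred in all crosslinked libraries of its protein, while RBFOX2 had its strongest peak at 1 of 2 places. The highest hnRNPA1 peak started 2 to 78 nt from the 5′ end in 8 of 8 libraries. For RBFOX2 it started at 616 to 734 nt in 7 of 10 libraries and at 1 to 3 nt, where the hnRNPA1 peaks also lie, in the other 3. For hnRNPI it started at 4887 to 4948 nt in 6 of 6 libraries. For hnRNPc it started at 18976 to 19226 nt in 20 of 20 libraries, including the shallow one. The start at 19226 nt belongs to hnRNPc_5k_noPAGE replicate 1, whose highest peak did not overlap that of any other crosslinked hnRNPc library. hnRNPA1 and RBFOX2 thus had their maximum within the first 1000 nt, hnRNPI beyond the first 4000 nt, and hnRNPc near the 3′ end of the span.

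**Figure D1:**
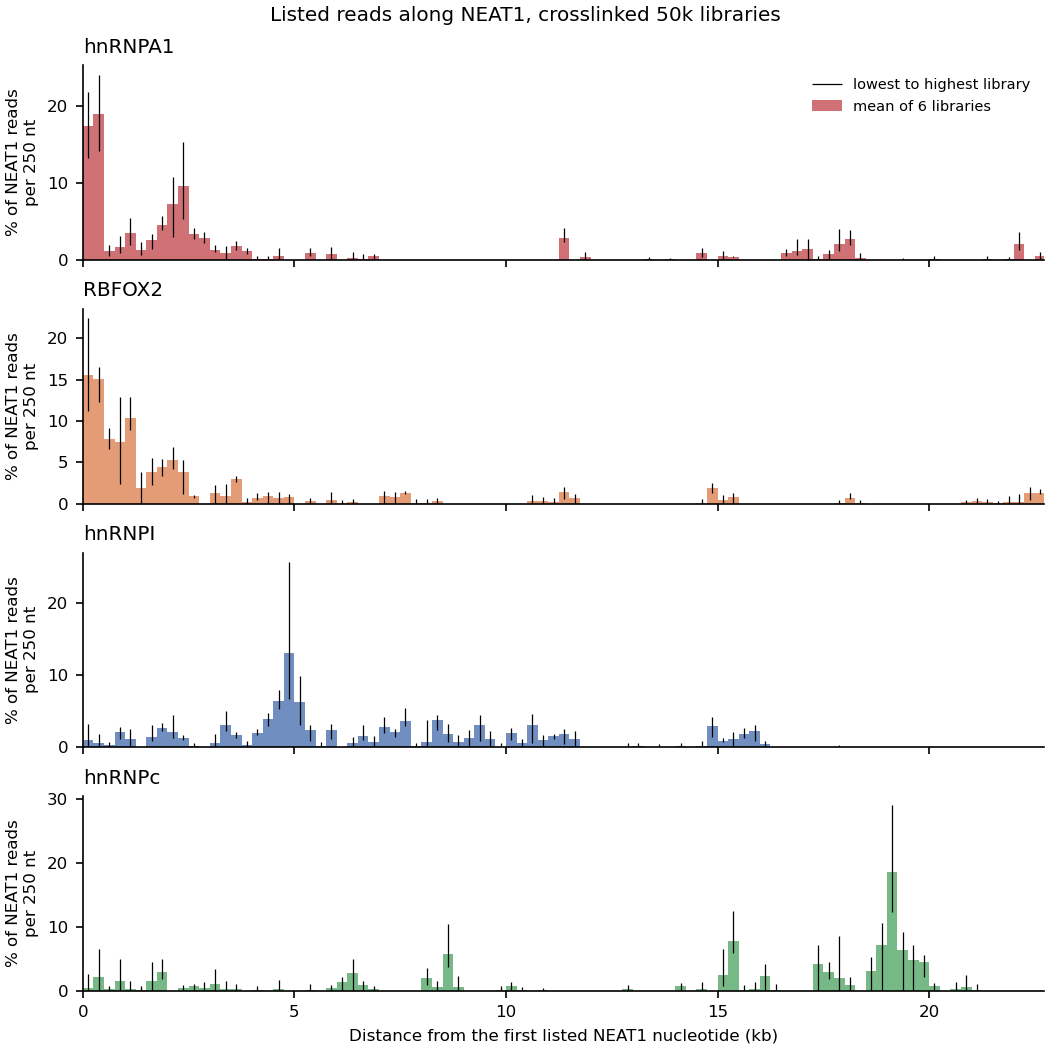
Percent of NEAT1 reads (y axis) per 250 nt along the RNA (x axis, kb from the first listed nucleotide) in the crosslinked 50k libraries with low RNase, without PAGE, and without PAGE with RecJ. Bars are means of 6 libraries and lines run from the lowest to the highest library. hnRNPA1 and RBFOX2 pile up within the first 4000 nt and hnRNPc at 18000 to 20000 nt. hnRNPI is highest around 4000 to 6000 nt and holds further reads up to 16000 nt.

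In windows of 1000 nt, a peak being placed by its midpoint, the first window held 39.3% ± 6.36 (SD, n = 6) of the hnRNPA1 reads in NEAT1 and 45.9% ± 3.94 (SD, n = 6) of the RBFOX2 reads. The next strongest window differed: it lay at 2000 to 3000 nt for hnRNPA1, with 23.1% ± 5.79 (SD, n = 6), and at 1000 to 2000 nt for RBFOX2, with 20.5% ± 1.56 (SD, n = 6). hnRNPI had 25.2% ± 7.84 (SD, n = 6) at 4000 to 5000 nt and 11.2% ± 4.08 (SD, n = 6) at 5000 to 6000 nt. hnRNPc had 34.4% ± 6.52 (SD, n = 6) at 19000 to 20000 nt and 11.2% ± 5.90 (SD, n = 6) at 18000 to 19000 nt, where single libraries ran from 0 to 16.1%. The window at 15000 to 16000 nt followed with 10.7% ± 4.25 (SD, n = 6). The 6 libraries of a protein are 3 protocols with 2 libraries each, so these SDs include differences between protocols. Some stretches held no listed peak: none of the 6 hnRNPA1 libraries listed a peak with its midpoint between 7000 and 11000 nt, and none of the 6 hnRNPI libraries listed one beyond 18000 nt.

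The sites with the most reads were chosen per protein from the 50k_noPAGE libraries, 3 for each, as peaks that both replicates list; their values in those libraries chose them, and no test is made at the sites. hnRNPA1 sites 1 to 3 are chr11:65190266-65190365, chr11:65192505-65192588 and chr11:65208353-65208480. RBFOX2 sites 1 to 3 are chr11:65192484-65192625, chr11:65190899-65191018 and chr11:65190265-65190410. hnRNPI sites 1 to 3 are chr11:65195153-65195376, chr11:65198415-65198603 and chr11:65199614-65199784. hnRNPc sites 1 to 3 are chr11:65209309-65209388, chr11:65210030-65210140 and chr11:65207652-65207738. All are on the plus strand in hg19. No annotation of that build was used here, so no exon or isoform boundary is attached to them. The first hnRNPA1 site overlaps the third RBFOX2 site, and the second hnRNPA1 site overlaps the first RBFOX2 site. No other sites overlap each other.

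hnRNPI site 1, at 4889 to 5112 nt, was listed in all 6 crosslinked hnRNPI libraries. Its highest peak held 558 and 577 reads with low RNase, 1058 and 1067 without PAGE, and 971 and 925 with RecJ, which is 5.30 to 7.07% of the NEAT1 reads of each library. None of the 8 crosslinked hnRNPA1 libraries and none of the 20 crosslinked hnRNPc libraries listed a peak there, and 2 of the 10 RBFOX2 libraries did, both from 1000 cells, with 19 and 18 reads. A missing peak is not a count of 0. The lowest listed NEAT1 peak had 44 to 84 reads in the hnRNPA1 libraries and 7 to 39 in the hnRNPc libraries. In the RBFOX2 libraries it had 15 and 17 reads from 1000 cells and 58 to 88 in the others. Fewer reads than a library's lowest would not appear.

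hnRNPc site 1, at 19045 to 19124 nt, was listed in all 20 crosslinked hnRNPc libraries. Its reads were 45 and 205 with low RNase, 283 and 364 with medium RNase, 330 and 297 without PAGE, and 268 and 380 with RecJ. From 10000 cells they were 342 and 337 and from 1000 cells 281 and 228, so the site was listed at each cell number. Outside hnRNPc, 1 of the 24 other crosslinked libraries listed it, hnRNPA1_50k_mediumRNase replicate 2, with 55 reads. hnRNPc site 3, at 17388 to 17474 nt, was listed in 19 of 20 hnRNPc libraries and in no crosslinked library of the other proteins.

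The shared 5′ sites were less restricted. The first hnRNPA1 site held 977 and 1066 reads with low RNase, 2947 and 2902 with medium RNase, 1888 and 1785 without PAGE, and 2384 and 1434 with RecJ. It was listed in 10 of 10 RBFOX2 libraries as well, at a median of 5.09% of their NEAT1 reads against 8.15% in the hnRNPA1 libraries. hnRNPI listed it in 3 of 6 libraries, with 124 and 172 reads with low RNase and 62 in hnRNPI_50k_noPAGE replicate 2. hnRNPc listed it in 10 of 20 libraries, with the most reads, 207 and 331, with medium RNase. The hnRNPc 50k libraries without PAGE, with or without RecJ, listed no peak there, and the 5k libraries without PAGE had at most 43 reads. RBFOX2 site 2, at 635 to 754 nt, was further apart between these proteins. It was listed in 10 of 10 RBFOX2 libraries at a median of 7.33% of the NEAT1 reads and in 6 of 8 hnRNPA1 libraries, with a median of 0.948% over all 8, a library with no listed peak entering at 0. In reads it held 2017 and 1636 for RBFOX2 with low RNase, 641 and 665 without PAGE, and 664 and 589 with RecJ.

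Several sites were listed across otherwise unlike profiles. hnRNPA1 site 2, at 2241 to 2324 nt, was listed in 8 of 8 hnRNPA1, 9 of 10 RBFOX2, 6 of 6 hnRNPI and 11 of 20 hnRNPc libraries, at medians of 4.39, 2.79, 1.29 and 0.670% of their NEAT1 reads. RBFOX2 site 2 was listed in 4 of 6 hnRNPI and 12 of 20 hnRNPc libraries. hnRNPA1 site 3, at 18089 to 18216 nt, lies in the distal part and was listed in 8 of 8 hnRNPA1, 10 of 10 RBFOX2 and 11 of 20 hnRNPc libraries, but in 0 of 6 hnRNPI libraries. hnRNPI site 2, at 8151 to 8339 nt, was listed in 6 of 6 hnRNPI and 19 of 20 hnRNPc libraries, in 3 of 10 RBFOX2 libraries and in 0 of 8 hnRNPA1 libraries. The median there was 3.58% of NEAT1 reads for hnRNPI and 1.24% for hnRNPc.

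**Figure D2:**
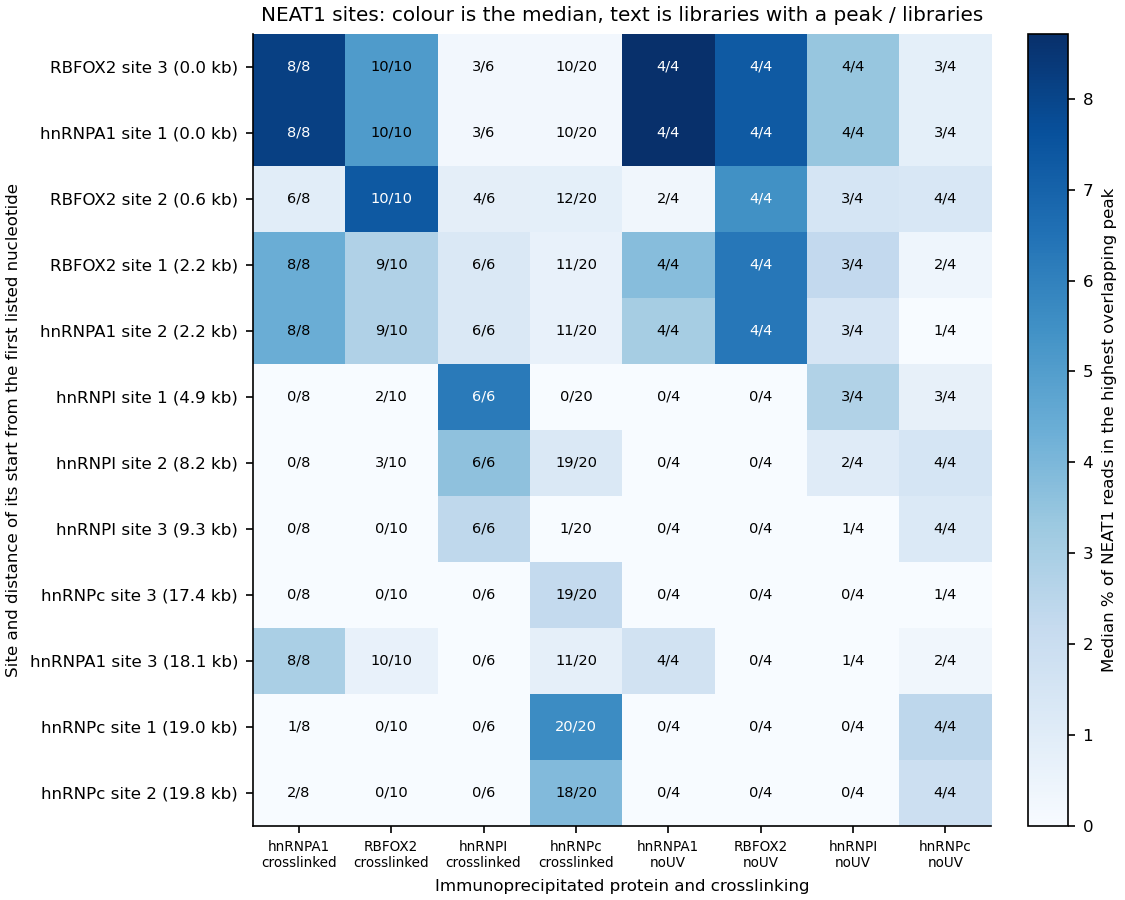
Median percent of NEAT1 reads in the highest peak that overlaps each site (colour), by antibody and crosslinking (x axis), with sites ordered by distance from the 5′ end (y axis). The text gives libraries with a peak over libraries; hnRNPI site 1 reads 6/6 for crosslinked hnRNPI and 0/20 for crosslinked hnRNPc.

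Whole profiles of 91 bins of 250 nt were compared between the 59 libraries with at least 20 NEAT1 peaks. This leaves out the shallow hnRNPc library and the gel regions. The median Pearson correlation between replicates of a crosslinked group was 0.953 (21 pairs). It was 0.849 between libraries of the same protein from different crosslinked groups (238 pairs) and −0.073 between different proteins (644 pairs). RBFOX2 and hnRNPA1 were the exception among different proteins, with a median of 0.778 (80 pairs), and hnRNPI and hnRNPc had the lowest, −0.150 (114 pairs). The bins come from the same libraries and each profile sums to the same total, so these are descriptions.

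The share of NEAT1 reads in the first 4000 nt put these differences to a test on single values per library. This segment was set to reach past the short isoform; reads there can come from either isoform, and the 2 cannot be told apart. Over the 6 libraries per protein, the share was 79.4% ± 10.4 (SD) for hnRNPA1, 81.7% ± 2.94 (SD) for RBFOX2, 18.4% ± 4.99 (SD) for hnRNPI and 12.5% ± 8.09 (SD) for hnRNPc. The 6 libraries are 3 protocols with 2 libraries each, so these SDs include differences between protocols. For hnRNPA1 the share was 66.2% ± 2.01 (SD, n = 2) with low RNase and 86.0% ± 0.955 (SD, n = 2) without PAGE. hnRNPA1 was higher than hnRNPc by 67.0 percentage points and higher than hnRNPI by 61.1. RBFOX2 was higher than hnRNPc by 69.3 and higher than hnRNPI by 63.4. Each of these 4 differences had an exact two-sided permutation p of 0.00926, the smallest this design allows, and an adjusted p of 0.0185 over 10 tests, and the libraries of the 2 proteins did not overlap. hnRNPc was lower than hnRNPI by 5.92 percentage points (exact permutation p 0.0185, adjusted p 0.0265), with overlapping libraries. Without hnRNPc_50k_lowRNase replicate 1 that difference was −5.33 (exact permutation, adjusted p 0.0529), and without hnRNPI_50k_lowRNase replicate 2 it was −5.22 (exact permutation, adjusted p 0.0529). The gaps to hnRNPI depend on where the segment ends, since the highest hnRNPI peak started at 4887 to 4948 nt. With a segment of 6000 nt, hnRNPA1 minus hnRNPI was 27.0 percentage points and hnRNPI minus RBFOX2 was −30.8. For hnRNPc minus hnRNPI that segment gave −41.4. hnRNPA1 and RBFOX2 differed by −2.30 percentage points (exact permutation p 0.444, adjusted p 0.494), with a difference of −15.3 with low RNase, 7.09 without PAGE and 1.27 with RecJ. When only peaks with at least 1% of a library's NEAT1 reads were kept, hnRNPA1 was lower by 7.79 percentage points (exact permutation, adjusted p 0.0154).

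**Figure D3:**
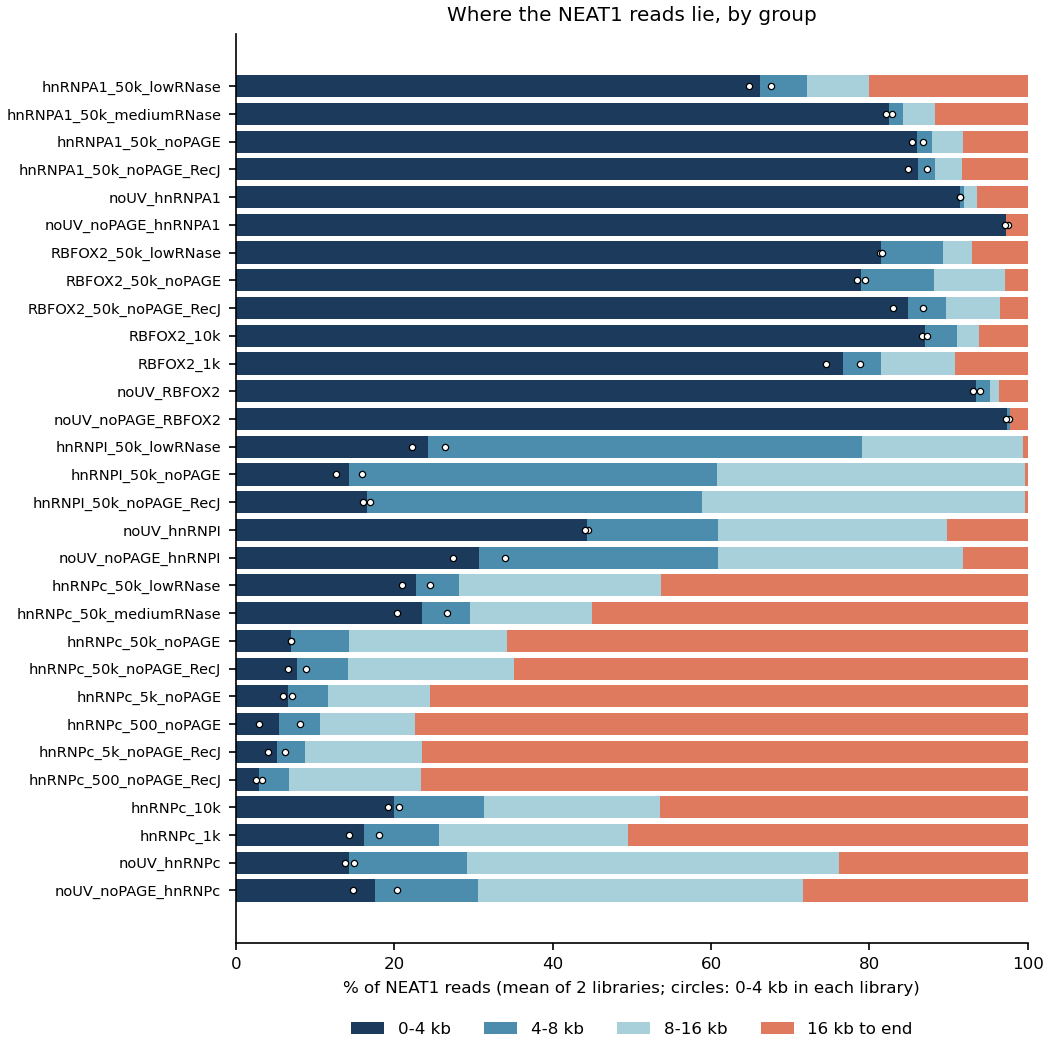
Percent of NEAT1 reads (x axis, mean of 2 libraries) in the first 4000 nt, 4000 to 8000 nt, 8000 to 16000 nt and beyond, for each group (y axis). Circles give the first 4000 nt in each library; they run from 64.7 to 97.7 over the hnRNPA1 and RBFOX2 libraries and from 2.52 to 44.5 over the hnRNPI and hnRNPc libraries.

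The amount of NEAT1 in each list was measured as NEAT1 reads per 1000000 reads in all listed peaks, a share within the list and not an abundance of the RNA. In the bulk lysates more bound molecules and more NEAT1 RNA per cell cannot be told apart. Among the crosslinked 50k groups with low RNase, without PAGE and with RecJ, and apart from the shallow library, hnRNPc had the lowest shares. With low RNase it had 4019 in the shallow library and 1316 in the other, without PAGE 692 and 756, and with RecJ 661 and 706. hnRNPA1 had 1858 and 2171 with low RNase, 1939 and 1849 without PAGE, and 2096 and 1997 with RecJ. hnRNPI had 2162 and 2435, 1647 and 1703, and 1866 and 1649 in the same order. RBFOX2 had 4057 and 4299 with low RNase, above the low RNase libraries of hnRNPA1 and hnRNPI, and 1766 and 1844 without PAGE and 1576 and 1766 with RecJ, close to theirs.

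The test was limma on the log2 of this share plus 1, over 12810 genes, with all 60 libraries and Benjamini-Hochberg adjustment. NEAT1 was lower for hnRNPc than for hnRNPA1, the log2 difference of hnRNPA1 minus hnRNPc being 0.92 (SE 0.22, adjusted p 0.0011 in limma). In that contrast 37.3% of all genes were called and the median over all genes was 0.80. The medians of the contrasts with hnRNPc include the shallow library and are not given without it. How close NEAT1 was to the typical gene is therefore not settled here. hnRNPc minus hnRNPI was −0.86 (SE 0.22, adjusted p 0.00102 in limma; 57.9% of genes called, median −0.58). hnRNPc minus RBFOX2 was −1.16 (SE 0.22, adjusted p 2.31e-05 in limma; 59.1% called, median 0.57), so here NEAT1 went against the median gene. The other 3 pairs did not pass: hnRNPA1 minus hnRNPI was 0.07 (SE 0.22, adjusted p 0.828 in limma; 44.2% called), hnRNPA1 minus RBFOX2 was −0.23 (SE 0.22, adjusted p 0.331 in limma; 73.8% called) and hnRNPI minus RBFOX2 was −0.30 (SE 0.22, adjusted p 0.205 in limma; 74.7% called). Under quantile normalization, hnRNPA1 minus RBFOX2 turned to 0.70 (adjusted p 0.0014 in limma). Without the shallow hnRNPc library the 3 differences from hnRNPc were 1.19, −1.12 and −1.42 and remained past the threshold. They did not survive counting peaks instead of reads: hnRNPA1 minus hnRNPc became −0.999 (adjusted p 0.0551 in limma), hnRNPc minus hnRNPI 0.15 (adjusted p 0.772 in limma) and hnRNPc minus RBFOX2 −0.42 (adjusted p 0.406 in limma). In fits of only the groups compared, hnRNPA1 minus hnRNPc (adjusted p 0.0557 in limma) and hnRNPc minus hnRNPI (adjusted p 0.0537 in limma) also missed the threshold, while hnRNPA1 minus RBFOX2 (adjusted p 0.0281 in limma) and hnRNPI minus RBFOX2 (adjusted p 0.0112 in limma) passed it.

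**Figure D4:**
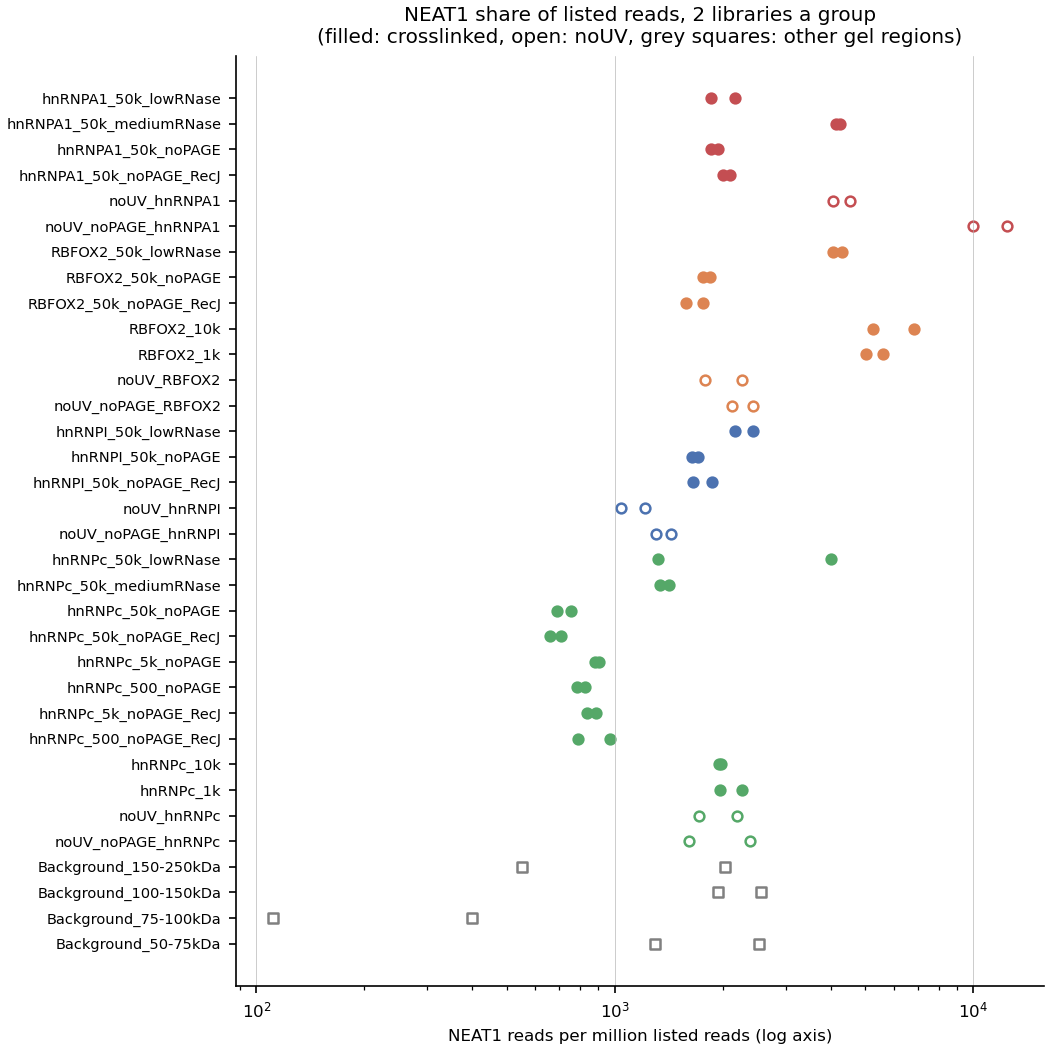
NEAT1 reads per 1000000 listed reads (x axis, log scale) in each library, by group (y axis). Filled circles are crosslinked, open circles noUV and grey squares other gel regions; the 2 noUV_noPAGE_hnRNPA1 libraries lie highest, at 9997 and 12421, and the 75-100 kDa region lowest, at 398 and 111.

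The first protocol question was what omission of the gel step changes. Over the 4 proteins the NEAT1 share fell by 0.85 on the log2 scale without PAGE (SE 0.19, adjusted p 0.0067 in limma). In this contrast 2.3% of genes were called and the median over all genes was 0.15, and 1.49% of genes had a lower value than NEAT1. The called share, median and rank all include the shallow library and are not given without it. Without the shallow library the value was −0.65 (adjusted p 0.000293 in limma), counting peaks it was −0.76 (adjusted p 0.255 in limma), and in a fit of only these groups the adjusted p was 0.101 in limma. By protein, hnRNPc fell by 1.67 (adjusted p 0.0023 in limma; 59.2% called), which without the shallow library became −0.86 (adjusted p 0.108 in limma) and in a fit of only these groups had an adjusted p of 0.504 in limma. Counting peaks it was −3.15 (adjusted p 0.00102 in limma). Of the genes called for hnRNPc by reads, with the shallow library included, 7389 were higher and 199 lower, the direction NEAT1 took. The median over all genes was 2.18 for hnRNPc with the shallow library included, against −0.30 for hnRNPA1 and −0.15 for hnRNPI. RBFOX2 had −1.21 (adjusted p 0.0611 in limma; 3.43% called), near its median over all genes of −1.08. That value passed with a pseudocount of 10 (adjusted p 0.00134 in limma), with no filter on genes (0.00242), in a fit of only these groups (0.00763) and under quantile normalization (0.000826). hnRNPI had −0.45 (adjusted p 1 in limma; 0.414% called) and hnRNPA1 −0.08 (adjusted p 1 in limma; 0.219% called). The difference between the proteins did not pass the threshold (limma F test, adjusted p 0.0573; 31.8% called), nor without the shallow library (adjusted p 0.0736; 8.45% called).

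In the hnRNPc libraries without PAGE, a larger part of the NEAT1 reads lay near the 3′ end. The 8 crosslinked hnRNPc libraries not titled noPAGE had 14.3 to 26.6% of their reads in the first 4000 nt and 45.4 to 55.3% beyond 16000 nt. The 12 titled noPAGE had 2.52 to 8.83% and 63.1 to 78.3%, with no overlap in either measure. For hnRNPA1 the first 4000 nt went the other way, from 64.7 and 67.6% with low RNase to 86.7 and 85.4% without PAGE. hnRNPI had 22.2 and 26.4% with PAGE and 12.7 and 16.0% without, and RBFOX2 81.3 and 81.6% with and 78.5 and 79.5% without. With 1 protein up and 3 down, the mean over proteins was −2.11 percentage points (exact two-sided permutation p 0.582, adjusted p 0.582).

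Added RecJ digestion gave no difference in NEAT1 beyond the spread between libraries. Over 6 pairs of groups the log2 difference was 0.01 (SE 0.15, adjusted p 1 in limma), and its sign changed when single libraries were left out (range −0.016 to 0.033). No gene of 12810 passed in limma (0% called; 26 had an unadjusted p under 0.05). The share in the first 4000 nt was 0.845 percentage points higher (exact two-sided permutation p 0.36, adjusted p 0.45).

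The series' design also names libraries that were not crosslinked. In the noUV libraries NEAT1 was listed for all 4 antibodies, with 22 to 99 peaks per library. For hnRNPA1 its share was higher than with crosslinking: 4070 and 4537 reads per 1000000 listed reads with PAGE, against 1858 and 2171, and 9997 and 12421 without PAGE, against 1939 and 1849. For hnRNPc it was 2198 and 1718 with PAGE, between its crosslinked values of 4019 and 1316, and 2379 and 1609 without PAGE against 692 and 756 in crosslinked libraries. hnRNPI had 1038 and 1217 with PAGE and 1307 and 1432 without, all below its crosslinked libraries. RBFOX2 had 2260 and 1789 with PAGE, below its crosslinked 4057 and 4299, and 2429 and 2124 without PAGE, above its crosslinked 1766 and 1844.

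Without PAGE, noUV minus crosslinked was 1.01 over the 4 proteins on the log2 scale (SE 0.19, adjusted p 5e-05 in limma), while the median over all genes was −0.72. The noUV lists without PAGE were shorter than the crosslinked ones for all 4 proteins. For hnRNPA1 they held 180477 and 196278 peaks of all genes against 499537 and 523402. For hnRNPI they held 44086 and 78945 against 353415 and 341973. Whether list length moved the median or the NEAT1 share was not tested. Of all genes, 47.7% were called in either direction and 7.17% upwards, the direction NEAT1 took. This call held in 24 of 24 alternatives. The proteins differed (limma F test, adjusted p 0.000395; 35.7% called; without the shallow library 1.56e-08 and 57.5%): hnRNPA1 rose by 2.56 (adjusted p 2.82e-05 in limma; 5.02% called) and hnRNPc by 1.43 (adjusted p 0.0312 in limma; 2.14% called), while hnRNPI had −0.29 (adjusted p 0.534 in limma; 56.6% called) and RBFOX2 0.33 (adjusted p 0.659 in limma; 11.1% called). The hnRNPc value missed the threshold without either hnRNPc_50k_noPAGE replicate (1.37 and 1.50) and without noUV_noPAGE_hnRNPc replicate 1 (1.15), with adjusted p of 0.284, 0.218 and 0.452 in limma, and when peaks were counted (1.63, adjusted p 0.46 in limma). Counting peaks, the hnRNPA1 value was 1.05 (adjusted p 0.843 in limma) and the hnRNPI value 2.36 (adjusted p 0.0031 in limma).

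With PAGE, the mean over proteins was −0.31 (SE 0.19, adjusted p 0.182 in limma; 43.4% called, median of all genes −0.64). The proteins differed again (limma F test, adjusted p 0.00135; 81.2% called), also without the shallow library (adjusted p 2.66e-07; 69.1% called). hnRNPI fell by 1.03 (adjusted p 0.0197 in limma; 53.9% called, median −1.66) and RBFOX2 by 1.05 (adjusted p 0.0174 in limma; 54.4% called, median −1.99). Both fell by less than the median gene, and both values passed 0 to the other side when peaks were counted, at 2.38 and 1.75. These noUV lists were also shorter. They held 18690 and 36809 peaks against 312894 and 294597 for hnRNPI, and 30170 and 22911 against 260610 and 208407 for RBFOX2. The hnRNPI call was lost without hnRNPI_50k_lowRNase replicate 2 (−0.94) or noUV_hnRNPI replicate 1 (−0.91). The RBFOX2 call was lost without noUV_RBFOX2 replicate 2 (−0.89) or either RBFOX2_50k_lowRNase replicate (−1.10 and −1.01). hnRNPA1 had 1.10 (adjusted p 0.0649 in limma; 7.65% called), which passed with a pseudocount of 10, with no filter on genes, in a fit of only these groups and under quantile normalization (adjusted p 0.00254 to 0.0139 in limma), and hnRNPc −0.24 (adjusted p 0.586 in limma; 49.3% called), which was 0.56 (adjusted p 0.228 in limma) without the shallow library, −1.05 (adjusted p 0.000941 in limma) without the other hnRNPc_50k_lowRNase library and −1.70 (adjusted p 0.0263 in limma) when peaks were counted.

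**Figure D5:**
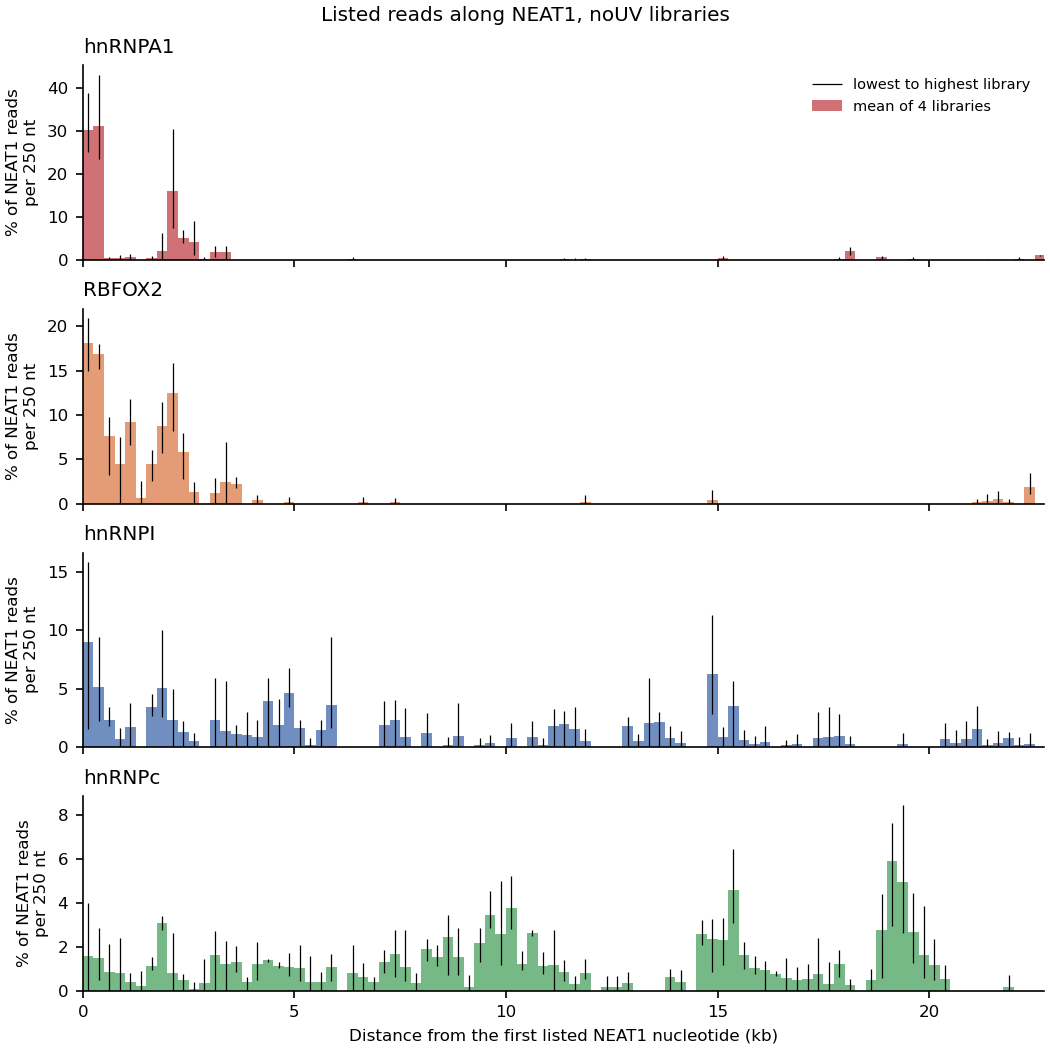
Percent of NEAT1 reads (y axis) per 250 nt along the RNA (x axis, kb from the first listed nucleotide) in the noUV libraries, with and without PAGE. Bars are means of 4 libraries and lines run from the lowest to the highest library. hnRNPA1 and RBFOX2 reads are almost all within the first 4000 nt, whereas hnRNPI and hnRNPc reads are spread over most of the span.

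Without crosslinking, the profiles of hnRNPA1 and RBFOX2 were closer to their crosslinked profiles than those of hnRNPI and hnRNPc were. The median correlation of noUV with crosslinked libraries of the same protein was 0.896 for hnRNPA1, 0.885 for RBFOX2, 0.517 for hnRNPc and 0.311 for hnRNPI. The noUV profiles of RBFOX2 also had a median of 0.830 with crosslinked hnRNPA1, and those of hnRNPA1 0.719 with crosslinked RBFOX2. The noUV hnRNPI profiles correlated at least as well with crosslinked RBFOX2 (0.473) and hnRNPA1 (0.454). Replicates of a noUV group also differed more for these proteins, with a median of 0.646 for hnRNPI and 0.633 for hnRNPc against 0.965 for hnRNPA1 and 0.930 for RBFOX2. The noUV hnRNPI libraries with PAGE held only 265 and 487 NEAT1 reads.

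The first 4000 nt held 91.4 and 91.4% of the noUV hnRNPA1 reads with PAGE and 97.5 and 97.1% without. For RBFOX2 it held 94.0 and 93.0% with PAGE and 97.7 and 97.2% without. For hnRNPI the values were 44.5 and 44.1%, and 27.5 and 34.0%, and for hnRNPc 13.7 and 14.9%, and 20.3 and 14.7%. Without PAGE the share was higher than in crosslinked libraries by 14.2 percentage points (exact two-sided permutation p 0.00154, the smallest the design allows, adjusted p 0.0154), and it was higher in 4 of 4 proteins. With PAGE it was higher by 12.2 (exact two-sided permutation p 0.0154, adjusted p 0.0257), up in hnRNPA1, hnRNPI and RBFOX2 and down by 8.44 in hnRNPc. That second result missed the threshold without the shallow library (11.8; exact permutation, adjusted p 0.0514) and when only peaks with at least 1% of the NEAT1 reads were kept (8.85; exact permutation, adjusted p 0.0887).

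Most of the sites were also listed without crosslinking. The first hnRNPA1 site held 1189 and 1442 reads in noUV hnRNPA1 with PAGE and 4962 and 7197 without. RBFOX2 site 2 was listed in 4 of 4 noUV RBFOX2 libraries at a median of 5.48% of the NEAT1 reads. hnRNPI site 1 was listed in 3 of 4 noUV hnRNPI libraries at a median of 2.73%, against 6.22% with crosslinking, and in 3 of 4 noUV hnRNPc libraries, although no crosslinked hnRNPc library listed it. hnRNPc site 1 was listed in 4 of 4 noUV hnRNPc libraries at a median of 2.39%, against 5.64%, and hnRNPc site 3 in 1 of 4. noUV hnRNPc had 40.3 to 51.2% of its reads between 8000 and 16000 nt, where its crosslinked libraries had 10.5 to 33.0%, or at most 24.2% without the shallow library. noUV hnRNPI had 5.96 to 14.0% beyond 16000 nt, where its crosslinked libraries had at most 0.874%.

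NEAT1 peaks were narrower in 3 of the 6 hnRNPA1 groups. Their median width over the whole span was 63 and 52 nt with low RNase and 60 and 60 nt without PAGE. It was 33.5 and 30 nt with medium RNase, 28 and 27.5 nt in noUV with PAGE and 30 and 24 nt in noUV without PAGE. Over all genes the median width in these 6 narrower libraries was 51 to 65 nt. A lower width in NEAT1 than over all genes was not limited to hnRNPA1: RBFOX2_10k replicate 1 had 40 against 66 nt and RBFOX2_50k_lowRNase replicate 2 had 42 against 63 nt. The same 6 libraries had 53.0 to 68.1% of their NEAT1 reads in the first 500 nt, against 27.5 to 40.9% in the other 6 crosslinked hnRNPA1 libraries. In noUV without PAGE the 2 libraries listed no peak between 4000 and 16000 nt; their lowest listed NEAT1 peaks had 99 and 137 reads, so weaker peaks there would not have been listed.

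Medium RNase was compared with low RNase as values only. For hnRNPA1 the log2 share was higher by 1.06 (pooled SD 0.11, n = 2 a group), with 4235 and 4134 reads per 1000000 listed reads, and the first 4000 nt rose from a mean of 66.2% to 82.5%. For hnRNPc it was lower by 0.74, but higher by 0.064 once the shallow library was left out, and the first 4000 nt held 22.8% with low and 23.5% with medium RNase.

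Cell numbers were compared as values only and were not tested. RBFOX2 had 6839 and 5268 reads per 1000000 listed reads from 10000 cells and 5612 and 5024 from 1000 cells, all above the 4057 and 4299 from 50000 cells with PAGE. Its share in the first 4000 nt was 87.0% ± 0.467 (SD, n = 2) from 10000 cells and 76.7% ± 3.06 (SD, n = 2) from 1000 cells. RNase amount changed together with the cell number. hnRNPc had 1974 and 1950 from 10000 cells and 2259 and 1966 from 1000 cells, with 46.5% ± 1.50 (SD, n = 2) and 50.5% ± 2.27 (SD, n = 2) of the reads beyond 16000 nt. Without PAGE, hnRNPc had 882 and 906 in the 5k libraries and 825 and 782 in the 500 libraries, against 692 and 756 from 50000 cells. The share beyond 16000 nt was 75.4% ± 1.68 (SD, n = 2) and 77.3% ± 1.43 (SD, n = 2), against 65.8% ± 1.51 (SD, n = 2) from 50000 cells.

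The other gel regions of the hnRNPc immunoprecipitation held 1 to 12 NEAT1 peaks per library with 8 to 115 reads. None listed a peak at hnRNPc site 1. The highest peak started at 19175 to 19197 nt in the 100 to 150 and 150 to 250 kDa regions, with 8 to 19 reads, and at 19750 and 19768 nt in the 50 to 75 kDa region, with 8 and 7 reads, overlapping hnRNPc site 2; in replicate 2 of that region both listed peaks had 7 reads. In the 75 to 100 kDa region it started at 5348 and 2603 nt, and 48.7 and 51.1% of the reads lay in the first 4000 nt. Read numbers this low allow no finer comparison.

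Ordered by mean share, noUV_noPAGE_hnRNPA1 was highest of the 34 groups and was separate from the next, RBFOX2_10k. RBFOX2_10k and RBFOX2_1k overlapped. noUV_hnRNPA1, hnRNPA1_50k_mediumRNase and RBFOX2_50k_lowRNase followed, each overlapping the next of the 3. Apart from a gel region, the lowest group was hnRNPc_50k_noPAGE_RecJ, which overlapped hnRNPc_50k_noPAGE. In all, 9 of 33 neighbouring pairs did not overlap between their 2 libraries each. The genes whose log2 share followed NEAT1 most closely over the 30 groups of the fit were ENSG00000115325 (Pearson r 0.828) and ENSG00000268388 (r 0.807), out of 12809 genes compared. Their mean log2 shares were only 1.26 and 0.85, near the floor of the scale, whereas NEAT1 group means ran from 9.42 to 13.4. No table at hand pairs these identifiers with names, and for the same reason the transcripts of the paraspeckle proteins were not analysed here.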

How the data were processed

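Peak lists of 68 libraries were used, 1 per library. The deposited p-value of each peak came from the authors' caller, which the file names give as CLIPper; the largest was 0.00755, with no adjustment stated. bcl2fastq, STAR 2.7.3a, UMI-tools 1.0.1 and hg19 are named in the submitters' processing notes. Peaks were listed per library. The last number of the deposited peak name, at least 4 everywhere, was taken as a read number, which no source states. Depth is unknown, so no counting interval is given. Peaks were placed by midpoint. limma 3.58.1 (R 4.3.3) was fitted with 1 mean per group to genes with a peak in at least 30 of 60 libraries. The same fit was run on simulated data with 1 setting for the spread of all genes and libraries. That run says nothing about the spread between the libraries used here. Segment shares were tested by exact permutation within strata. Sites were the 3 strongest per protein that both 50k_noPAGE replicates list, at least 500 nt apart. NEAT1, the sites, lists and tests were chosen with earlier results of these data known. Same-numbered replicates did not deviate together (correlations −0.046 to 0.085 over 18 group pairs). No genome of this build was used here, so no sequence is shown, and 0 gene identifiers were matched to names. 11 lists hold 1 peak of another identifier within the span.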

Additional observations from a re-analysis of the deposited data

Results flagged for a closer look

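The change in NEAT1 share without crosslinking differed between proteins by the test of the difference itself. With PAGE, hnRNPA1 and RBFOX2 lay 2.15 apart on the log2 scale, and without PAGE, hnRNPA1 and hnRNPI lay 2.85 apart. Neither gap involves an hnRNPc library, so leaving out hnRNPc_50k_lowRNase replicate 1 could not change them. With all libraries the limma F test gave adjusted p of 0.00135 and 0.000395. It called 81.2% and 35.7% of all genes, so such a difference was not particular to NEAT1.

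With PAGE omitted, and in noUV libraries with PAGE, the share of NEAT1 reads in the first 4000 nt moved in opposite directions between proteins. This held in every library of these comparisons, and the differences between proteins were not tested. In noUV libraries without PAGE the share was higher in 4 of 4 proteins. When PAGE was omitted, it was higher for hnRNPA1 and lower for the other proteins, with gaps of 35.7 percentage points to hnRNPc, 29.8 to hnRNPI and 22.4 to RBFOX2. In noUV libraries with PAGE it was lower for hnRNPc and higher for the other proteins, with gaps of 33.7 to hnRNPA1, 28.5 to hnRNPI and 20.5 to RBFOX2.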

How the results depend on the processing

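The meaning of the read number is not stated and the depth is unknown, so a share within a list can move with what else is listed, and a peak under a library's lowest listed read number is missing. The rise of the NEAT1 share in noUV libraries without PAGE kept its direction and call in all 24 alternatives (0.60 to 1.39). Keeping only peaks with at least 1% of the NEAT1 reads, and the test of the difference between proteins without the shallow hnRNPc library, were chosen after seeing the data.

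Counting peaks in place of reads gave −0.999 for hnRNPA1 minus hnRNPc, −0.85 for hnRNPA1 minus hnRNPI, −1.42 for hnRNPA1 minus RBFOX2, 0.15 for hnRNPc minus hnRNPI, −0.42 for hnRNPc minus RBFOX2, −0.76 for PAGE omitted and 0.87 for noUV with PAGE. By protein it gave 2.38 (hnRNPI) and 1.75 (RBFOX2) for noUV with PAGE, 2.36 for hnRNPI in noUV without PAGE and 0.54 for RBFOX2 with PAGE omitted. For hnRNPc it gave −1.70 in noUV with PAGE, −3.15 with PAGE omitted and 1.63 in noUV without PAGE. Quantile normalization gave 0.70 for hnRNPA1 minus RBFOX2, 0.35 for hnRNPI minus RBFOX2, −0.014 for RecJ and −0.45 for noUV with PAGE, and by protein 0.33 for hnRNPA1 with PAGE omitted and 0.49 for hnRNPc in noUV with PAGE. Peaks with p below 1e-05 gave 0.029 for hnRNPA1 minus RBFOX2 and −0.55 for noUV with PAGE, and a pseudocount of 10 gave −0.31 for the latter. Fitting only the groups compared left the values 0.92, −0.23, −0.86, −0.30 and −0.85 for hnRNPA1 minus hnRNPc, hnRNPA1 minus RBFOX2, hnRNPc minus hnRNPI, hnRNPI minus RBFOX2 and PAGE omitted, and moved both differences from RBFOX2 past the threshold and the other 3 out of it. For these settings the cause was not tested.

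Of the first 4000 nt, a segment of 3000 nt gave −1.87 percentage points for hnRNPc minus hnRNPI and 9.59 for noUV with PAGE. A segment of 6000 nt gave 27.0 for hnRNPA1 minus hnRNPI, −30.8 for hnRNPI minus RBFOX2 and −41.4 for hnRNPc minus hnRNPI. It also gave −0.061 for RecJ and 4.86 for noUV with PAGE. Counting peaks gave 4.12 for hnRNPA1 minus RBFOX2 and 8.66 for noUV with PAGE, and keeping peaks of at least 1% gave −7.79 and 8.85.

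With the replicate number as a replicate block no limma call changed, and the segment values stayed at 67.0, 61.1, −5.92, −69.3, −63.4, 12.2 and 14.2 percentage points for the 7 comparisons that had passed, all now above the threshold (adjusted p 0.0521, and 0.067 for noUV with PAGE, exact permutation), since fewer relabellings are possible.

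Leaving out 1 library at a time gave −0.016 to 0.033 for RecJ, with 4 changes of sign, and −0.51 to −0.11 for noUV with PAGE, which passed without hnRNPc_50k_lowRNase replicate 2. It gave −6.62 to −5.22 for hnRNPc minus hnRNPI and 11.7 to 12.8 for noUV with PAGE in the first 4000 nt. For hnRNPA1 with PAGE omitted it gave −0.20 to 0.027, the sign turning without hnRNPA1_50k_lowRNase replicate 2. For hnRNPc it gave −1.05 to 0.56 in noUV with PAGE, −1.55 to 0.064 in medium minus low RNase and −1.03 to 0.58 in 10k minus 50k cells, each higher value being the one without hnRNPc_50k_lowRNase replicate 1. For RBFOX2, 1k minus 10k cells gave −0.37 to 0.011, the latter without RBFOX2_10k replicate 1. With p below 1e-05, 10k minus 50k cells was 0.25 for hnRNPc (−0.23 with all peaks) and 1k minus 10k cells was 0.35 for RBFOX2 (−0.18 with all peaks).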
